A study of Mus musculus with 5 samples.

Results

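The genes of major histocompatibility complex (MHC) class I and its antigen processing machinery were examined in mouse neurospheres with 1 floxed Arid1b allele. The group holds 10 genes, taken by symbol from the 54532 genes of the deposited table: B2m, H2-K1, H2-D1, Tap1, Tap2, Tapbp, Psmb8, Psmb9, Psmb10 and Nlrc5. All 10 passed the filter on low values and were tested. The comparison was 3 heterozygous libraries (hGFAPCre+, Arid1b flox/+) against 2 littermate control libraries (hGFAPCre+, Arid1b+/+). Every library was RNA-seq of neurospheres, floating cultures of neural progenitors, from the hippocampus of C57BL/6 mice at P0, grown in B27 medium with the growth factors EGF and FGF-2, each at 20 ng/ml, and collected on the seventh day. All animals carried the hGFAPCre transgene, which is driven by a human GFAP promoter active in neural progenitors, so the groups share Cre and differ in the floxed allele. Whether a library stands for 1 mouse is not stated in the labels, and the p-values therefore reflect only how these libraries vary, which may be technical variation.

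Class I molecules sit on the surface of nearly all nucleated cells and show fragments of the cell's own proteins to CD8+ T cells. Each is a heavy chain paired with the light chain beta-2 microglobulin. The fragments are cut by the proteasome, carried into the endoplasmic reticulum by the TAP transporter and fitted into the heavy chain groove with the help of tapasin. Interferons raise the whole set: they replace catalytic subunits of the proteasome with the immunoproteasome forms and induce NLRC5, a coactivator that binds at class I promoters. Neural progenitors and neurons are known for low class I levels in the absence of interferon. Some antiviral interferon-stimulated genes rose in the heterozygous libraries, and the question here was whether antigen presentation genes were higher too.

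Of the 10 genes, none passed the test in either direction (limma, adjusted p under 0.05), where 1.9% of the 16411 genes tested passed as higher and 0.944% as lower in heterozygous libraries (2.84% in all). By the same limma fit 2 of 10, Nlrc5 and B2m, had an unadjusted p under 0.05, against 26.1% of all genes tested. The quasi-likelihood test of edgeR called 0 of 10 (2.49% of all genes), and DESeq2 called 1, Nlrc5 (14.4% of all genes). The log2 fold changes were positive for 5 and negative for 5, with a median of -0.01 beside 0.01 over all genes tested. For 2 of the 10, Nlrc5 and B2m, every heterozygous library lay above both controls. Among all genes tested, 23.4% were higher in this way and 46.7% had no overlap in either direction. For 5 of the 10 the heterozygous libraries all lay between the 2 controls, against 18.2% of all genes tested.

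The 2 controls stood apart from each other in this gene group, and that spread bears on every value below. Control replicate 1 was above control replicate 2 in 10 of 10 genes, by 0.19 (Psmb10) to 1.14 (Psmb9) on the log2 scale with a median of 0.71, while it was the higher control for 48.5% of all genes tested. Markers of pericytes and fibroblasts moved with this difference: 6 of the 7 tested were higher in control replicate 1, with a median of 2.06 on the log2 scale, and their part in the class I values was not tested. The log2 values of the 3 heterozygous libraries correlated with one another at 0.988 to 0.989 across the 16411 genes, the 2 controls at 0.952, control replicate 1 with the heterozygous libraries at 0.927 to 0.930, and control replicate 2 with them at 0.971 to 0.974. These correlations describe the libraries only, because genes are no replicates of one another. Depth ran from 19833803 to 25494722 reads per library. Heterozygous replicate 2 held 36851 reads of Xist and none of 4 Y-linked genes, whereas the other 4 libraries held at most 301 Xist reads and at least 4731 Y-linked reads, so it differed from them in sex. Arid1b, the targeted gene, had normalized counts of 1102, 1145 and 1003 in heterozygous libraries, against 1510.4 and 1730 in controls, which is -0.58 on the log2 scale (SE 0.14, limma adjusted p = 0.0701). Its count was lower in all 3 heterozygous libraries without passing this test, while DESeq2 on the recovered reads gave an adjusted p of 0.0073 and the authors' deposited table lists 0.0200. Counts summed over a gene leave the state of the floxed exon unseen.

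**Figure D1:**
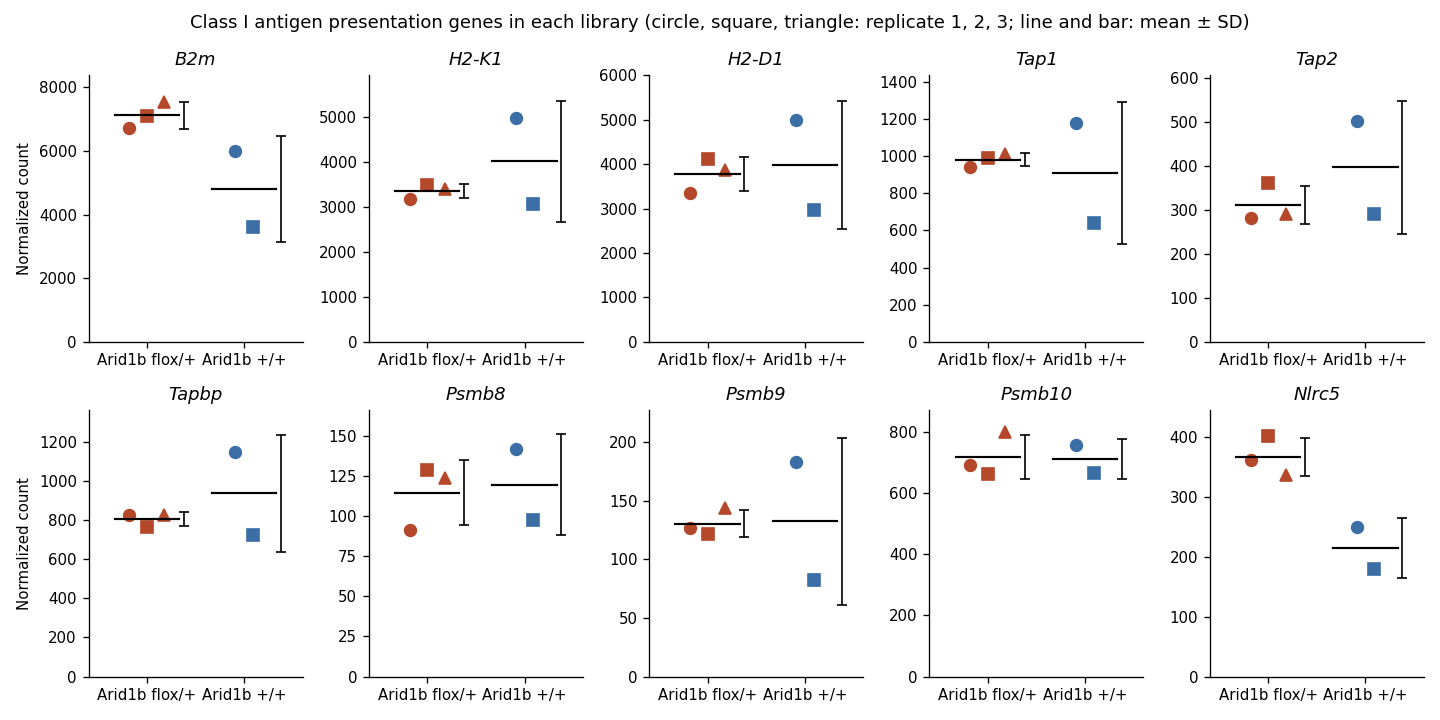
Normalized read counts of the 10 class I presentation genes in each library, heterozygous (Arid1b flox/+, n = 3) left of control (Arid1b +/+, n = 2); points are libraries, lines are means and bars SD, and each y axis starts at 0. Every heterozygous point lies above both controls for B2m and Nlrc5, and the controls are far apart in most panels.

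Promoter windows of 5 genes are shown because interferon, NF-kappaB and NLRC5 inputs to class I genes meet in the bases just before the start site. RefSeq windows (build GRCm38.p6, 250 bases before to 50 after the gene's RefSeq start) were found for 8 of the 10 genes, all but Tap2 and Nlrc5. This start can differ from the gene coordinates given below. The H2-D1 window lies wholly inside its gene interval, so distances to the start depend on the annotation and are not comparable between genes. B2m, H2-K1 and H2-D1 encode the class I molecule itself, and Tap1 and Psmb9 are transcribed away from each other from a shared stretch, their windows having 275 bases in common. Isg15, one of the interferon-stimulated genes that rose, is given for comparison. Capitals mark matches, on either strand, to the core of the interferon-stimulated response element (GAAA, any NN, GAAA) or to a kappaB site (GGG, any NN, TT, any N, CC), and the sequences run 5′ to 3′ on the strand of the gene.
B2m (chr2:122147437-122147736, + strand): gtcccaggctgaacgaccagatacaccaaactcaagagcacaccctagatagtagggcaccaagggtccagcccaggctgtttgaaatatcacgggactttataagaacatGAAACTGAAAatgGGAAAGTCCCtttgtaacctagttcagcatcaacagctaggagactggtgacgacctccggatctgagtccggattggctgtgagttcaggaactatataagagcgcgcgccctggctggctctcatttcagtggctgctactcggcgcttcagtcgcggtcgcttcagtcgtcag
H2-K1 (chr17:34000298-34000597, - strand): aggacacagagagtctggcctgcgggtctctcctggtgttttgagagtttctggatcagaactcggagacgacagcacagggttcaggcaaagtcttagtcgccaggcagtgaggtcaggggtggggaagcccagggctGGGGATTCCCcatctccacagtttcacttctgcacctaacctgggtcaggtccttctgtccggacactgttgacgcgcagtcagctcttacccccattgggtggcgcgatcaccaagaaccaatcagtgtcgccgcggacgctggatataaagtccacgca
H2-D1 (chr17:35262844-35263143, + strand): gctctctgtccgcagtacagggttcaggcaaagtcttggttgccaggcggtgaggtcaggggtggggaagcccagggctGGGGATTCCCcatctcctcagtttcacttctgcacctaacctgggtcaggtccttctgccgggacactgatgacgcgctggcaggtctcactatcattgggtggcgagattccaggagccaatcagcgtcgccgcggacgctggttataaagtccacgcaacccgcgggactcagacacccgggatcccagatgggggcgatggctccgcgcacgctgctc
Tap1 (chr17:34187306-34187605, + strand): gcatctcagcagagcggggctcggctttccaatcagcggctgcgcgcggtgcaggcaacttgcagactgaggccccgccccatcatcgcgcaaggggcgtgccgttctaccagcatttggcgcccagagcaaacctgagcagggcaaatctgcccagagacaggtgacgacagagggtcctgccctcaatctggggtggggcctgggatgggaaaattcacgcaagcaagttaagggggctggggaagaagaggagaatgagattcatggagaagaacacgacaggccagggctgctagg
Isg15 (chr4:156200769-156201068, - strand): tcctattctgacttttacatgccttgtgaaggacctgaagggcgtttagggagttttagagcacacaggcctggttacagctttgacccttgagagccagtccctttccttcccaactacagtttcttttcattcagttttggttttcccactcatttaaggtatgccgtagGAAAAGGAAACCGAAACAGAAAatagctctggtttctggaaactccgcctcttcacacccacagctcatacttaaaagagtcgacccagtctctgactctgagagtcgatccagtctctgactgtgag

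The B2m window held 1 response element match, 139 bases before the start, and 1 kappaB match 126 bases before it. H2-K1 and H2-D1 each held 1 kappaB match with the same letters, 111 and 171 bases before the start. Neither held a match to the exact response element core. Both windows hold the letters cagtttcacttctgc after the kappaB match, which on the other strand are close to that core but outside the pattern searched. Isg15 held 3 response element matches, which overlap one another, between 78 and 66 bases before the start, and Ifit1 held 2. Over the 8 genes, 1 window (B2m) held the response element core, which occurs in 3.44% of 32851 windows, and 3 held the kappaB letters, which occur in 4.79%. A gamma-activated site (TTCNNNGAA, 8.3% of windows) was matched in Psmb8 alone, and a CCAAT box (CCAAT, 37.4% of windows) in 6 of the 8, among which Tap1 and Psmb9 share sequence. A match is letters in a window and was not tested for binding. Only these exact letters were searched, so a window without a match can still hold a variant of an element.

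B2m, the invariant light chain of all class I molecules (ENSMUSG00000060802, mm10 chromosome 2 from 122147686 to 122153083, + strand), was the most abundant of the 10. It had normalized counts of 6709, 7085 and 7549.8 in heterozygous libraries, against 5982 and 3616 in controls. The lowest heterozygous library stood above control replicate 1, and the distance between the 2 controls was larger than that between control replicate 1 and any heterozygous library. B2m averaged 7115 ± 421 in heterozygous libraries (SD, n = 3) and 4799 ± 1673 in controls (SD, n = 2). The log2 fold change was 0.61 (95% interval 0.08 to 1.14, limma adjusted p = 0.153). The authors' deposited table lists 0.53 for B2m (adjusted p = 0.125). Against control replicate 2 alone the log2 fold change was 0.97 (adjusted p = 0.0022), and against control replicate 1 alone 0.25 (adjusted p = 0.0958), in fits that assume a lone control varies as the heterozygous libraries do.

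The heavy chains had log2 fold changes near or below 0. H2-K1, a classical class I heavy chain (ENSMUSG00000061232, chromosome 17 from 33996017 to 34000347, - strand), had 3170.5, 3478.5 and 3402 normalized counts in heterozygous libraries, against 4970.0 and 3064 in controls. H2-D1, the other classical heavy chain of this strain (ENSMUSG00000073411, chromosome 17 from 35262730 to 35267499, + strand), had 3361, 4126 and 3859, against 5000.3 and 2959.7. For both genes the 3 heterozygous libraries lay between the controls. The log2 fold change was -0.22 for H2-K1 (95% interval -0.73 to 0.29, limma adjusted p = 0.529) and -0.03 for H2-D1 (95% interval -0.60 to 0.54, limma adjusted p = 0.943). Both intervals overlap that of B2m, and a difference between the light and heavy chains was not tested. The 3 genes shared the split between the controls, with control replicate 1 higher by 0.73 for B2m, 0.70 for H2-K1 and 0.76 for H2-D1 on the log2 scale. Heavy chain genes resemble one another: 3.59% of the 100-base windows in H2-D1 transcripts and 0.957% of those in H2-K1 also occur in transcripts of other genes, among them H2-Q and H2-T genes, so a part of their reads is uncertain.

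The peptide transporter and tapasin lay within the spread of the controls or close to it. Tap1, a subunit of the peptide pump (ENSMUSG00000037321, chromosome 17 from 34187553 to 34197225, + strand), was at 942, 988 and 1011 normalized counts in heterozygous libraries, against 1181 and 638 in controls. Its heterozygous libraries were within 0.10 of one another on the log2 scale and between controls that were 0.89 apart, with a log2 fold change of 0.17 (95% interval -0.45 to 0.80, limma adjusted p = 0.685). Tap2, the partner subunit (ENSMUSG00000024339, chromosome 17 from 34203527 to 34216321, + strand), had 281, 361 and 290.3, against 503 and 289.8, and heterozygous replicate 1 was below both controls. Its log2 fold change was -0.30 (95% interval -0.96 to 0.35, limma adjusted p = 0.499). Tapbp, which encodes tapasin (ENSMUSG00000024308, chromosome 17 from 33915899 to 33929292, + strand), had 824, 767 and 825, against 1146 and 725, a log2 fold change of -0.18 (95% interval -0.69 to 0.33, limma adjusted p = 0.605). All its heterozygous libraries fell between the controls. Antisense or neighbouring genes cover part of these exons: Gm19412 runs against 24.9% of Tapbp exon bases and Gm15821 against 14.1% of those of Tap2, and the labels do not state if reads were counted by strand.

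The immunoproteasome subunits, which take the places of Psmb5, Psmb6 and Psmb7 in the catalytic core, showed no call either. Psmb8 (ENSMUSG00000024338, chromosome 17 from 34197721 to 34201454, + strand) was counted at 91.6, 129 and 124 normalized counts in heterozygous libraries, against 142 and 97.5 in controls. Psmb9 (ENSMUSG00000096727, chromosome 17 from 34181987 to 34187764, - strand) had 127, 121 and 143, against 183 and 82.2. Psmb10 (ENSMUSG00000031897, chromosome 8 from 105935735 to 105938444, - strand) had 689.9, 661.5 and 799.8, against 758 and 665. The groups overlapped for all 3 genes. The log2 fold changes were -0.05 for Psmb8 (95% interval -0.72 to 0.62, limma adjusted p = 0.917), 0.08 for Psmb9 (-0.78 to 0.94, adjusted p = 0.894) and 0.01 for Psmb10 (-0.36 to 0.38, adjusted p = 0.974). The sign of the Psmb9 and Psmb10 values turned under other count models or scalings. Psmb8 and Psmb9 rested on 86 to 145 and 91 to 157 reads per library, the fewest of the 10 genes. An antisense gene, Gm20496, runs against 14.7% of Psmb8 exon bases.

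Nlrc5, the class I coactivator (ENSMUSG00000074151, chromosome 8 from 94434356 to 94527272, + strand), had the smallest p of the 10. Its normalized counts were 361, 401 and 337 in heterozygous libraries, against 250.2 and 179.7 in controls. The lowest heterozygous library was above the higher control by more than the heterozygous libraries differed among themselves. Nlrc5 averaged 366 ± 32.1 in heterozygous libraries (SD, n = 3) and 215 ± 49.9 in controls (SD, n = 2). The log2 fold change was 0.78 (SE 0.21, 95% interval 0.28 to 1.28), and its limma adjusted p of 0.0877 missed the threshold. DESeq2 on the recovered reads gave an adjusted p of 0.0259, and the authors' deposited table lists 0.0245 beside a log2 fold change of 0.72. Among its genes with an adjusted p, 6.32% pass as higher, and with DESeq2 7.3% did. With either control left out the value stayed positive, at 1.02 without control replicate 1 (limma adjusted p = 0.0070) and 0.54 without control replicate 2 (limma adjusted p = 0.0218).

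Which control was used decided the direction for 8 of the 10 genes. Without control replicate 1, log2 fold changes were positive for 10 of 10, with a median of 0.28, and limma called B2m, Tap1 and Nlrc5 higher, where 9.21% of all genes tested were called higher. Without control replicate 2, they were positive for 2 of 10 (B2m and Nlrc5), with a median of -0.36. Limma then called Nlrc5 higher, where 27.2% of all genes were, and H2-K1, H2-D1, Tap2 and Tapbp lower, where 23.5% of all genes were. The sign differed between these 2 fits for 34.2% of all genes tested. Seen the other way, control replicate 1 was the highest of the 5 libraries in 7 of the 10 genes (35.3% of all genes) and control replicate 2 the lowest in 7 (18.0% of all genes). The genes' mean deviation from their own log2 average was -0.05, 0.08 and 0.08 in heterozygous libraries, against 0.29 and -0.40 in controls.

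**Figure D2:**
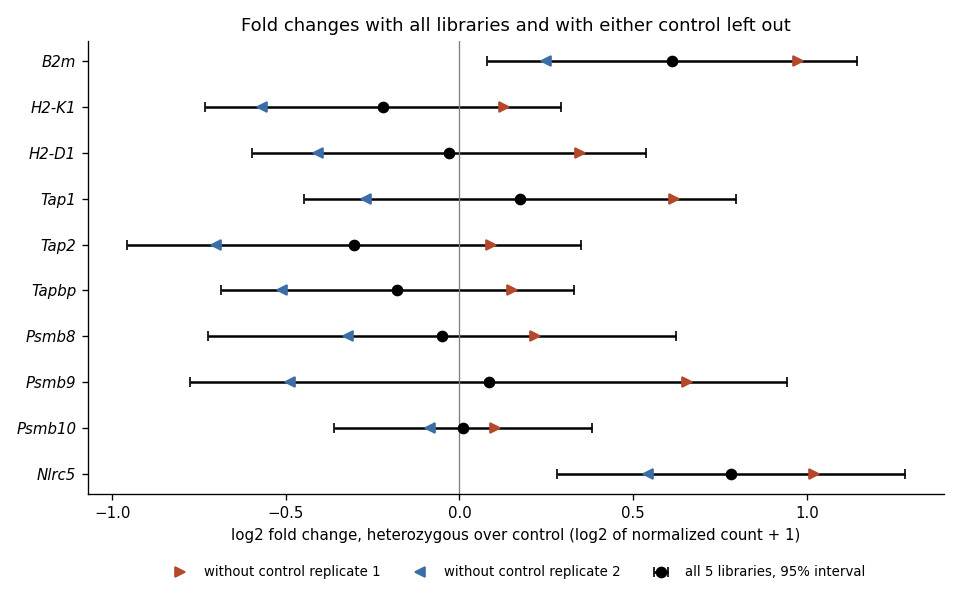
Log2 fold change, heterozygous over control, of each class I presentation gene with all 5 libraries (black, with the 95% interval of the limma fit) and with either control left out (triangles). Nlrc5 and B2m stay right of 0 in all 3 fits, and the triangles of the other 8 genes fall on opposite sides of 0.

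Levels between genes were compared as normalized counts per kilobase of annotated exon, averaged over the 5 libraries. The length used was the union of all annotated exons of a gene, and a longer union lowers the level. It was 3.381 kilobases for Psmb8 and 3.66 for Psmb9, against 0.899 for Psmb5, 1.872 for Psmb6 and 0.86 for B2m. For Psmb7 (3.421) it was longer than for Psmb10 (1.705). The order of levels therefore rests in part on the annotation. B2m stood highest at 7196 per kilobase and its lowest library (4205) was above the highest library of any other of the 10. H2-D1 (1497) and H2-K1 (1231) followed, with ranges that overlapped, and were apart from Psmb10 (419) below them. Tapbp averaged 236, Tap1 174 and Tap2 91.3 per kilobase, and neighbours among these 3 overlapped in range. Nlrc5 (36.0), Psmb9 (35.8) and Psmb8 (34.5) were the lowest and did not differ beyond their spread. The constitutive subunits stood above their immunoproteasome counterparts in every library, with means of 2218 for Psmb6, 1318 for Psmb5 and 895 for Psmb7. The gap was smallest for Psmb7 and Psmb10, at 634 against 444 in control replicate 1.

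Ratios within a library need no scaling between libraries. The ratio of Psmb8 to Psmb5 normalized counts was 0.0708, 0.105 and 0.0815 in heterozygous libraries, against 0.205 and 0.0820 in controls, and control replicate 1 stood apart from the other 4. The ratio of Psmb9 to Psmb6 was 0.0284, 0.0297 and 0.0265, against 0.0639 and 0.0207, with the heterozygous libraries between the controls. The ratio of Psmb10 to Psmb7 was 0.204, 0.202 and 0.214, against 0.349 and 0.241, with all heterozygous libraries below the 2 controls. The log2 differences were -0.62, -0.37 and -0.49, with two-sided exact permutation p-values of 0.4, 0.8 and 0.2 (0.6, 0.8 and 0.6 adjusted over the 3 ratios). For 3 against 2 libraries 0.2 is the smallest p this test allows, so it could not pass. Without control replicate 1 the difference was 0.04 for Psmb8 to Psmb5, 0.44 for Psmb9 to Psmb6 and -0.22 for Psmb10 to Psmb7. Gm3375 and Mir686 share 22.2% of the 100-base windows of Psmb5, so its counts are uncertain.

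**Figure D3:**
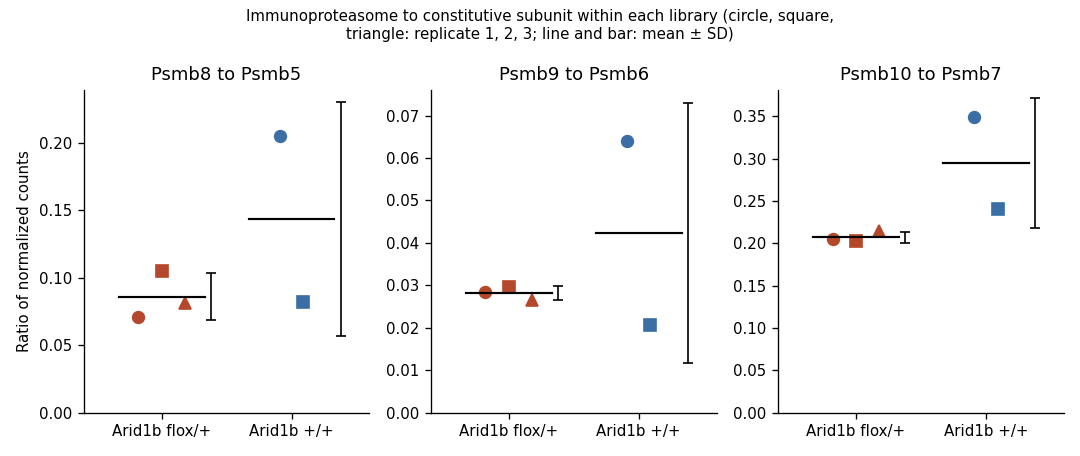
Ratio of the normalized count of each immunoproteasome subunit to that of the constitutive subunit it replaces, per library, heterozygous (n = 3) left of control (n = 2); lines are means, bars SD, and axes start at 0. Control replicate 1 is the highest library in each panel, at 0.205, 0.0639 and 0.349.

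The constitutive side of the proteasome was described from a list of 14 subunits of its core particle. None passed over all genes tested (limma; 6 had an unadjusted p under 0.05, and edgeR and DESeq2 called 0), while log2 fold changes were positive for 14 of 14 with a median of 0.40, beside 0.01 for all genes. Leaving out control replicate 1 gave a list median of 0.23, and leaving out control replicate 2 gave 0.52. Psmb7 had 3374, 3268 and 3736 normalized counts in heterozygous libraries, against 2168 and 2762 in controls, a log2 fold change of 0.50 (limma adjusted p = 0.113). Psmb5 had 1294, 1230.4 and 1519, against 694 and 1189, a log2 fold change of 0.56 (adjusted p = 0.206), and Psmb6 had 0.45 (adjusted p = 0.203). Without control replicate 1 these were 0.17 for Psmb5 and 0.22 for Psmb6, and both genes are denominators of the subunit ratios. Psma2 (0.53, adjusted p = 0.116) and Psma3 (0.49, adjusted p = 0.117), both of the outer rings, were the others with the smallest p. In this list control replicate 1 was the higher control for 1 of 14 genes, the reverse of the 10 of 10 seen for class I presentation genes. Of 9 activator and assembly genes none passed (limma; 1 at an unadjusted p under 0.05, 0 by edgeR and DESeq2). Psme2, a subunit of the interferon-inducible PA28 cap, had 1463, 1402 and 1739 in heterozygous libraries, against 1125 and 1137 in controls, a log2 fold change of 0.43 (limma adjusted p = 0.130), and its partner Psme1 had -0.04 (adjusted p = 0.916), with 0.24 without control replicate 1 and -0.31 without control replicate 2. Pomp, an assembly chaperone of the proteasome, had 0.44 (adjusted p = 0.209) and Psme3 0.34 (adjusted p = 0.382, and -0.06 without control replicate 1).

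Other class I and class I-like genes ran from -1.02 to 1.23 in log2 fold change. Of 18 listed, 13 passed the filter and none passed the test (limma; 3 at an unadjusted p under 0.05, 0 by edgeR, and 1, H2-Q6, by DESeq2), with a median log2 fold change of 0.06, which was -0.05 without control replicate 2. Control replicate 1 was the higher control for 6 of the 13. H2-Q6, a nonclassical heavy chain, had 103, 102 and 131 normalized counts in heterozygous libraries, against 33.7 and 65.0 in controls (1.23, limma adjusted p = 0.0953), and H2-T22 had 757, 755 and 787, against 569 and 596 (0.40, adjusted p = 0.130). Both were above the controls in every heterozygous library, but 13% of the H2-Q6 windows and 31.5% of those of H2-T22 occur in other genes. Cd1d1, which presents lipids, was below both controls in every heterozygous library (-0.47, adjusted p = 0.133). Among 11 genes of loading and trimming in the endoplasmic reticulum and cytosol none passed (limma; 1 at an unadjusted p under 0.05, 0 by edgeR and DESeq2). The smallest p belonged to Pdia3, the oxidoreductase of the loading complex (0.43, adjusted p = 0.150), Hspa5, a chaperone (0.33, adjusted p = 0.198), and Npepps, a cytosolic peptidase (-0.31, adjusted p = 0.228).

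Upstream of the class I genes, regulators and receptors gave mixed values. Irf1, which drives class I genes after interferon gamma, had a log2 fold change of -0.19 (limma adjusted p = 0.563). Its heterozygous libraries lay between the controls, and the value was 0.04 with control replicate 1 left out and -0.42 with control replicate 2 left out (limma adjusted p = 0.0471). Rfx5, a subunit of the complex that NLRC5 joins on promoters, had a log2 fold change of -0.70 (limma adjusted p = 0.0510) and was called by edgeR and DESeq2. The regulators Irf7 (1.33, limma adjusted p = 0.0670) and Irf9 (0.65, adjusted p = 0.0741) went the other way. Both were above the controls in every heterozygous library, and DESeq2 called them. Of 12 interferon receptors, kinases and inhibitors 1 fell and none rose, where 0.944% of all genes tested fell and 1.9% rose. The 1 that fell was Jak2, a kinase of the interferon gamma receptor, with 1476, 1554.5 and 1537 in heterozygous libraries, against 2976 and 2563 in controls (-0.86, SE 0.13, limma adjusted p = 0.0375). Its adjusted p was 0.0772 with library weights and 0.184 to 0.228 without any 1 of the heterozygous libraries. Of 8 interferon genes none passed the filter, and their summed normalized counts were 0, 0 and 0.974 in heterozygous libraries, against 5.82 and 1.81 in controls.

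Of 25 interferon-stimulated genes 24 were tested, 9 rose and none fell, with a median log2 fold change of 1.54. Over all genes tested, 1.9% rose and 0.944% fell by this limma fit. Isg15, a ubiquitin-like modifier, had 281, 288 and 194 normalized counts in heterozygous libraries, against 15.1 and 32.5 in controls, with no overlap (3.44, limma adjusted p = 0.0258). Ifit1, which binds foreign RNA, had a log2 fold change of 2.94, and Igtp, an interferon-inducible GTPase, 1.63. Ifi27, Rtp4, Oas1a, Ifit3, Usp18 and Oasl2 were the others that rose, at 1.56, 2.11, 3.70, 2.25, 1.79 and 1.81. Of the list, edgeR called 8 (2.49% of all genes in either direction) and DESeq2 16 (14.4% of all genes). With library weights 5 of the 9 (Ifi27, Ifit1, Isg15, Oas1a and Rtp4) still passed with limma. None of the 9 passed without any 1 of the heterozygous libraries, where adjusted p-values were 0.184 to 0.220 and at most 1 gene passed in the whole table. Their rise is already known from these libraries and is no independent support for any value here. Leaving out control replicate 1 or 2 gave medians of 1.47 and 1.35 for this list, and of 0.28 and -0.36 for the 10 class I presentation genes. In the antiviral list control replicate 1 was the higher control for 12 of 24 genes, against 10 of 10 here. The difference between the lists was not tested.

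**Figure D4:**
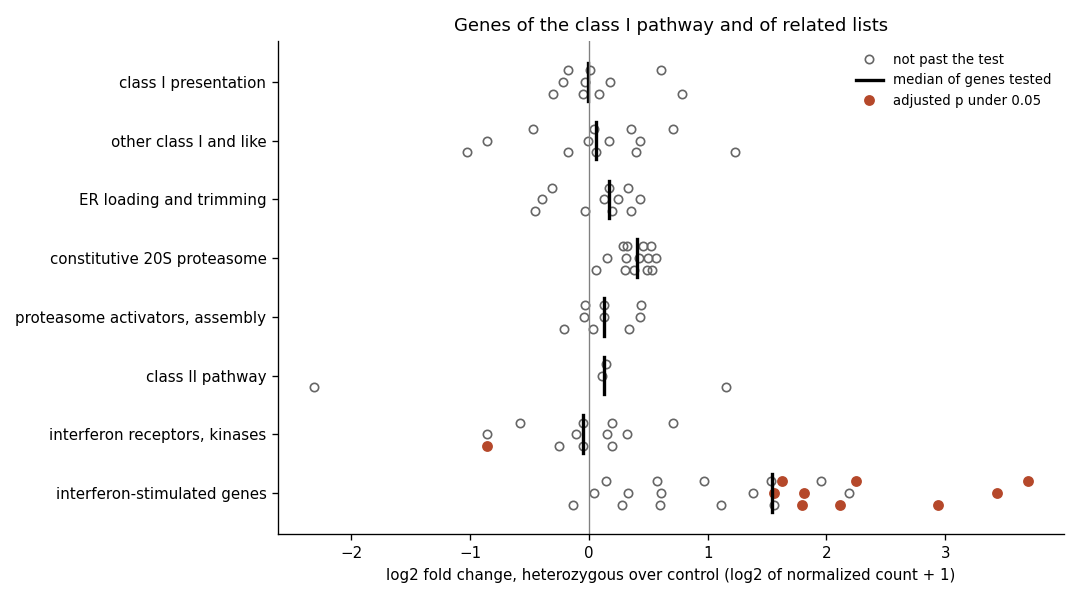
Log2 fold change, heterozygous over control, of every tested gene of the class I presentation group and 7 related lists; filled points passed the test over all genes, open points did not, and vertical bars are medians. The class I presentation genes centre at -0.01 and the interferon-stimulated genes at 1.54, with 9 filled points.

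Class II genes, which present antigen on professional presenting cells, mostly had counts too low to pass the filter. Of 10 listed, 4 passed the filter and none passed the test (limma; 2 at an unadjusted p under 0.05, 0 by edgeR, and 1, H2-Ab1, by DESeq2). With no filter on low values limma called 2, H2-Ab1 as lower and H2-DMb1 as higher, the second at 4.26, 9.79 and 5.85 normalized counts in heterozygous libraries, against 0 and 0 in controls. H2-Ab1, a class II beta chain, had 56.4, 76.6 and 75.0 normalized counts in heterozygous libraries, against 627 and 191 in controls, or -2.32 on the log2 scale (limma adjusted p = 0.0590). Leaving out control replicate 1 gave -1.46, and leaving out control replicate 2 gave -3.17. Its alpha chain partner H2-Aa had 0, 0 and 1.95, against 0 and 0, and the invariant chain Cd74 had at most 4.87 in any library. H2-Eb1 had a log2 fold change of 1.15 (adjusted p = 0.114) and Ciita, the class II counterpart of Nlrc5, of 0.14 (adjusted p = 0.776, and -0.14 without control replicate 1).

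The cultures could hold other cells that express class I genes. In bulk RNA, fewer cells of a type and less RNA per cell cannot be told apart. All 10 neural progenitor markers passed the filter, with a list median log2 fold change of -0.55 and summed normalized counts of 190470 to 221920 in heterozygous libraries and of 153940 and 170370 in controls, so the median and the sum point in opposite directions. Hes5, a Notch target gene of progenitors, was called lower by limma and edgeR. The 20 microglia and macrophage markers summed to 534, 959 and 1123 in heterozygous libraries, against 649 and 581 in controls. None of the 13 tested passed (limma; 2 at an unadjusted p under 0.05, 0 by edgeR, and 1, C1qa, by DESeq2), with a positive log2 fold change in 12 and a median of 1.17, with 0.55 when control replicate 1 was left out and 1.94 when control replicate 2 was. The defining markers were low but not all near 0. Cx3cr1 had 0, 3.56 and 2.92 normalized counts in heterozygous libraries, against 2.33 and 2.71 in controls, and Tmem119 had 6.39, 0 and 5.85, against 4.65 and 0. P2ry12 had 13.8, 13.4 and 10.7, against 1.16 and 13.5. Other members were highest in heterozygous replicates 2 and 3: Trem2 had 4.26, 23.1 and 31.2, against 2.33 and 2.71, C1qa had 14.9, 89.0 and 83.8, against 11.6 and 16.3, and Csf1r had 6.39, 16.9 and 28.3, against 10.5 and 5.42. B2m and these sums had the same order among the 3 heterozygous libraries and among the 2 controls, and the part of microglia in the B2m values was not tested. The 12 endothelial markers summed to 308 to 388 in heterozygous libraries and to 305 and 255 in controls, with none passing (limma; 2 at an unadjusted p under 0.05, 0 by edgeR and DESeq2). The 10 pericyte and fibroblast markers summed to 4915 to 6293 in heterozygous libraries and to 4151 and 3538 in controls, with none of 7 tested passing (limma; 1 at an unadjusted p under 0.05, 0 by edgeR and DESeq2). Pdgfra and Rgs5 carried most of that sum, and Col1a1, Col1a2, Col3a1 and Dcn had their highest library in control replicate 1. The list's mean deviation from each gene's own log2 average was 0.70, 0.20 and -0.56 in heterozygous libraries, against 0.79 and -1.13 in controls. Lymphocyte markers summed to at most 26.6 in any library, and Cd3e, Ms4a1 and Nkg7 were at 0 in all 5.

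The 5 genes outside these lists whose profile over the 5 libraries lay nearest to the average of the 10 were Klhl26, C1qtnf6, Akt2, Mkrn1 and Sulf2. Their root mean square distance was 0.031 to 0.050 on the log2 scale, beside a median of 0.348 over 12912 genes with a mean of at least 50. Klhl26 had 741, 822 and 835 normalized counts in heterozygous libraries, against 968 and 623 in controls. This arrangement between the controls follows from how the gene was chosen. Of the 10 class I presentation genes, 7 lie on chromosome 17, between positions 33915899 and 35267499. Arid1b is on the same chromosome, from 4994332 to 5347656. B2m, Psmb10 and Nlrc5 lie on other chromosomes, and a part of position in the values was not tested.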

How the data were processed

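RNA-seq of 5 neurosphere libraries was analysed. STAR, DESeq2 and the build mm10 are named in the submitters' processing notes. The annotation, the counter, the strand setting and versions are not given in the sources used. The signal deposited per library is the authors' read count divided by 1 size factor: with a tolerance of 0.001 read, 100% of values were whole reads. Beside it stand the authors' deposited log2 fold change, p-value and adjusted p-value, and a standard error and Wald score that the authors deposited and that are not used here.

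Values were taken as log2(normalized count + 1) and tested with limma 3.58.1 (R 4.3.3, intensity trend, two-sided, Benjamini-Hochberg over all 16411 genes with a mean of at least 10, threshold 0.05). Fold changes are heterozygous over control on this scale, and for low genes the scale makes a change look smaller than it is. Alternatives were edgeR 4.0.16 and DESeq2 1.42.0 on the recovered reads, other pseudocounts, filters and scalings, library weights, a replicate block and leaving out each library. The limma and edgeR fits were also run on simulated counts with a common dispersion and no library standing apart. These data differ from that setting, so the simulation cannot show how the fits behave here. Exon lengths and coordinates come from the GENCODE annotation of mm10, promoter windows from RefSeq GRCm38.p6. Gene names other than the 10 and 3 constitutive counterparts follow a rule: Arid1b, list members past the test or otherwise the 3 with the smallest p, and the 5 unlisted genes with the nearest profile. Psme1, Irf1, Irf7, Irf9, Rfx5, class II genes other than H2-Ab1, H2-Eb1 and Ciita, and single cell type markers were named after their values were seen. Counts for the regulator list and a few named items are not reported here. The 10 genes and all lists were chosen with earlier results of these data known.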

Additional observations from a re-analysis of the deposited data

How the results depend on the processing

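The 10 class I presentation genes were refitted under 15 alternatives. DESeq2 called 1 of them, and leaving out each library gave 0 to 5 calls, while the other 9 alternatives called 0, as did the fit with all libraries. The whole table held 466 calls, against 2325 with DESeq2, 117 with library weights, 1 with the replicate block and 0 to 8320 with a library left out. The block drops heterozygous replicate 3 from the contrast, and same-numbered libraries did not deviate together (correlations 0.0279 and -0.0399). With 2 controls the deviation of one is the mirror image of the other. These correlations therefore cannot decide whether the numbers pair libraries. B2m and Nlrc5 stayed positive under all 15 alternatives, at 0.25 to 0.97 and 0.54 to 1.02 with a library left out. With a library left out the log2 fold change ran from -0.57 to 0.13 for H2-K1, -0.41 to 0.35 for H2-D1, -0.27 to 0.62 for Tap1, -0.70 to 0.092 for Tap2, -0.51 to 0.15 for Tapbp, -0.32 to 0.22 for Psmb8, -0.49 to 0.66 for Psmb9, -0.084 to 0.10 for Psmb10, -0.058 to 0.73 for Psme3 and -0.14 to 0.43 for Ciita. Psmb9 was also -0.036 with edgeR and -0.033 with DESeq2, and Psmb10 was -0.0030 with TMM factors, -0.0063 with quantile normalization, -0.0020 with edgeR, -0.072 with the block and -0.038 with weights. Of the class II list, 2 genes were called with no filter on low values, against 0 with it. The subunit ratios ran from -1.28 to 0.045 (Psmb8 to Psmb5), -1.18 to 0.44 (Psmb9 to Psmb6) and -0.76 to -0.22 (Psmb10 to Psmb7), and their mean differences between same-numbered libraries were -0.59, -0.33 and -0.51. The cause of these shifts was not tested. A fit that leaves out a control rests on 1 control, assumed to vary like the heterozygous libraries. Psmb8 and Psmb9, with 86 to 157 reads per library, are also limited by depth.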
